A study of Mus musculus with 6 samples.

Results

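Genes of cholesterol and fatty acid synthesis, and the genes that sense or export sterols, were followed in cultured mouse podocytes that were stretched or left at rest. The list held 40 gene symbols, and a gene was measured where the array annotation gave at least 1 probe set with that single symbol. The probe set with the highest mean over the 6 arrays stood for the gene. This gave 37 of the 40 genes, among 18193 genes in all. They were 29 sterol genes, namely 18 synthesis enzymes, 6 sensing and transport genes and 5 genes of sterol efflux and of the liver X receptor (LXR) response, and 8 fatty acid genes. Expression of Acat2, Nr1h2 and Soat1 was not analysed here, and their promoters enter the promoter counts alone.

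Cells make cholesterol from acetyl-CoA through mevalonate, isoprenoid diphosphates, squalene and lanosterol. When sterols in the endoplasmic reticulum run low, the escort protein encoded by Scap carries SREBP transcription factors (from Srebf1 and Srebf2) to the Golgi, where they are cleaved and released to switch on sterol and fatty acid synthesis genes. The INSIG proteins hold the complex back when sterols are plentiful, and oxysterols then activate LXR, which raises the cholesterol exporters. In podocytes, the epithelial cells that wrap the capillaries of the kidney glomerulus, cholesterol is known as a component of the lipid domains that hold the slit diaphragm proteins.

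RNA came from SVI, a conditionally immortalized mouse podocyte line that had been differentiated for 1 to 2 weeks at 38 °C in medium with 10% serum. The 3 unstretched samples were left at rest, and the 3 stretched samples underwent cyclic biaxial stretch at 0.5 Hz and up to 5% linear strain for 3 days. Both groups therefore consist of 1 cell line kept in serum, and no further treatment or genotype is named. The series mentions 3 independent batches without saying of what, so p-values measure the spread between these samples, which may be technical. The number of arrays limits the precision. Of the podocyte markers, Nphs1 (nephrin) lay between 4.73 and 5.18 on the log2 scale, below the median gene at 5.74, whereas Synpo (synaptopodin) lay between 7.95 and 8.46 and Wt1 between 6.48 and 7.14.

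Unstretched replicate 3 stood apart from the other unstretched arrays in the sterol genes. It was the lowest of the 3 unstretched arrays in 13 of 18 synthesis enzymes (72.2%), and in 35.8% of all genes. It was the lowest of all 6 arrays in 12 of them (66.7%, against 17.5% of all genes). Its value minus the mean of the other unstretched arrays had a median of -0.44 over the 18 enzymes and of -0.01 over all genes. Stretched replicate 3 was in turn the highest of all 6 arrays in 11 of the 18 (61.1%, against 13.3% of all genes). Where leaving out unstretched replicate 3 moved a change by more than 1.5 times or turned its sign, the value without it is given for the genes described below.

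The promoters were searched for sites known from the control of sterol genes. SREBP binds a sterol regulatory element and acts together with NF-Y, which binds CCAAT, and Sp1, which binds GC boxes. Promoter sequences at RefSeq starts (build GRCm38.p6) were at hand for 32 of the 40 genes. They were lacking for Fdps, Fdft1, Sqle, Stard4, Abcg1, Scd1, Scd2 and Fads1. The 250 bases upstream of each start were searched on both strands for CCAAT, for GGGCGG and for the sterol regulatory element core TCACNCCAC. None of these motifs contains another. Genes with several starts counted once if any window held the motif. Of the 9 genes called higher, 5 had a window. Among them were 4 sterol synthesis enzymes, Pmvk, Idi1, Cyp51 and Lbr. For Pmvk, the window chr3:89454291-89454540 held 1 CCAAT box, 136 bases upstream of the start, and chr3:89459321-89459570 held 0. The Pmvk sequences were left out. The 6 windows below are shown because they belong to 3 called enzymes (Idi1, Cyp51, Lbr), to Hmgcs1 with its sterol regulatory element core, to Msmo1 with 3 CCAAT boxes and, for contrast, to the fatty acid gene Fads2 with none. Each is written 5′ to 3′ in the direction of the gene, and capitals mark CCAAT (or ATTGG on the other strand) and the element core.
Hmgcs1, chr13:119690101-119690350, plus strand: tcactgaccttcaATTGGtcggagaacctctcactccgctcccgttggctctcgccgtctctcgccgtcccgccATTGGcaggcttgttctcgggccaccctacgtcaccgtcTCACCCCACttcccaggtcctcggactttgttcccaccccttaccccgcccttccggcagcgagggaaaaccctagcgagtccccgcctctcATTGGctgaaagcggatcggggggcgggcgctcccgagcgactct
Idi1, chr13:8885356-8885605, plus strand: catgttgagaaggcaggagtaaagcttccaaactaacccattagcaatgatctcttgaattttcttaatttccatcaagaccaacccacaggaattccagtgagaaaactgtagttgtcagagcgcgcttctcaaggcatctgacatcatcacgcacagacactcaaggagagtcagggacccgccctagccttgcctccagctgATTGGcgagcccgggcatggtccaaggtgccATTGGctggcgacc
Cyp51, chr5:4104698-4104947, minus strand: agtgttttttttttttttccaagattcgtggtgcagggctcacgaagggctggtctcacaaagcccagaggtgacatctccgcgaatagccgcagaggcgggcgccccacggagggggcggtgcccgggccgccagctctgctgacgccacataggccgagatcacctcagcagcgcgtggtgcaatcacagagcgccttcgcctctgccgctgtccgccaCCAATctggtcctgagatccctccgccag
Lbr, chr1:181842402-181842651, minus strand: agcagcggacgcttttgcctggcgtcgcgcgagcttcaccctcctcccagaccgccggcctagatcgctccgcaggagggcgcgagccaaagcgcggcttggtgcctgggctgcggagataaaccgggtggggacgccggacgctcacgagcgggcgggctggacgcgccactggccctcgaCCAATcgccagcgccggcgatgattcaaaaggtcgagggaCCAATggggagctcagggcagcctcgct
Msmo1, chr8:64733579-64733828, minus strand: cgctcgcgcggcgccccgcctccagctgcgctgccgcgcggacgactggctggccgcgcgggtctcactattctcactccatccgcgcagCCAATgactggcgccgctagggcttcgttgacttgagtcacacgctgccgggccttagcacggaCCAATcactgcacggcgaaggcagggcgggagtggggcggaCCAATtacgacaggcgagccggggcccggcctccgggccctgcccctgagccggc
Fads2, chr19:10101504-10101753, minus strand: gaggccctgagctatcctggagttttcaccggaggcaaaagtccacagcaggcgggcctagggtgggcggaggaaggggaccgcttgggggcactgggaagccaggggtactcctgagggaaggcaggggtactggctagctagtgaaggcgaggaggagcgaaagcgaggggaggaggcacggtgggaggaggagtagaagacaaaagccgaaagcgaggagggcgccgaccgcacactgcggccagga

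CCAAT occurred in 15 of 16 sterol synthesis genes with a window (93.8%), in 4 of 5 sensing and transport genes, in 2 of 6 efflux and LXR genes and in 1 of 5 fatty acid genes (20.0%). Among the 14452 tested genes with a window, 39.4% held it. At least 2 CCAAT boxes were found in 10 of the 16 synthesis genes (62.5%) and in 13.4% of tested genes. In Msmo1 they began 160, 96 and 55 bases upstream of the start, and in Lbr 68 and 28 bases upstream. GGGCGG occurred in 15 of the 16 synthesis genes as well, and in 53.4% of tested genes. The element core was found in 1 of the 32 genes, Hmgcs1, 137 bases upstream of its start, and in 1.27% of tested genes. Only exact matches to this string were counted, so forms of the element that differ by a letter would be missed. Its absence in the count does not show that a gene lacks an element. These matches describe letters in a window and do not show binding, and the cells were not assayed for it.

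**Figure D1:**
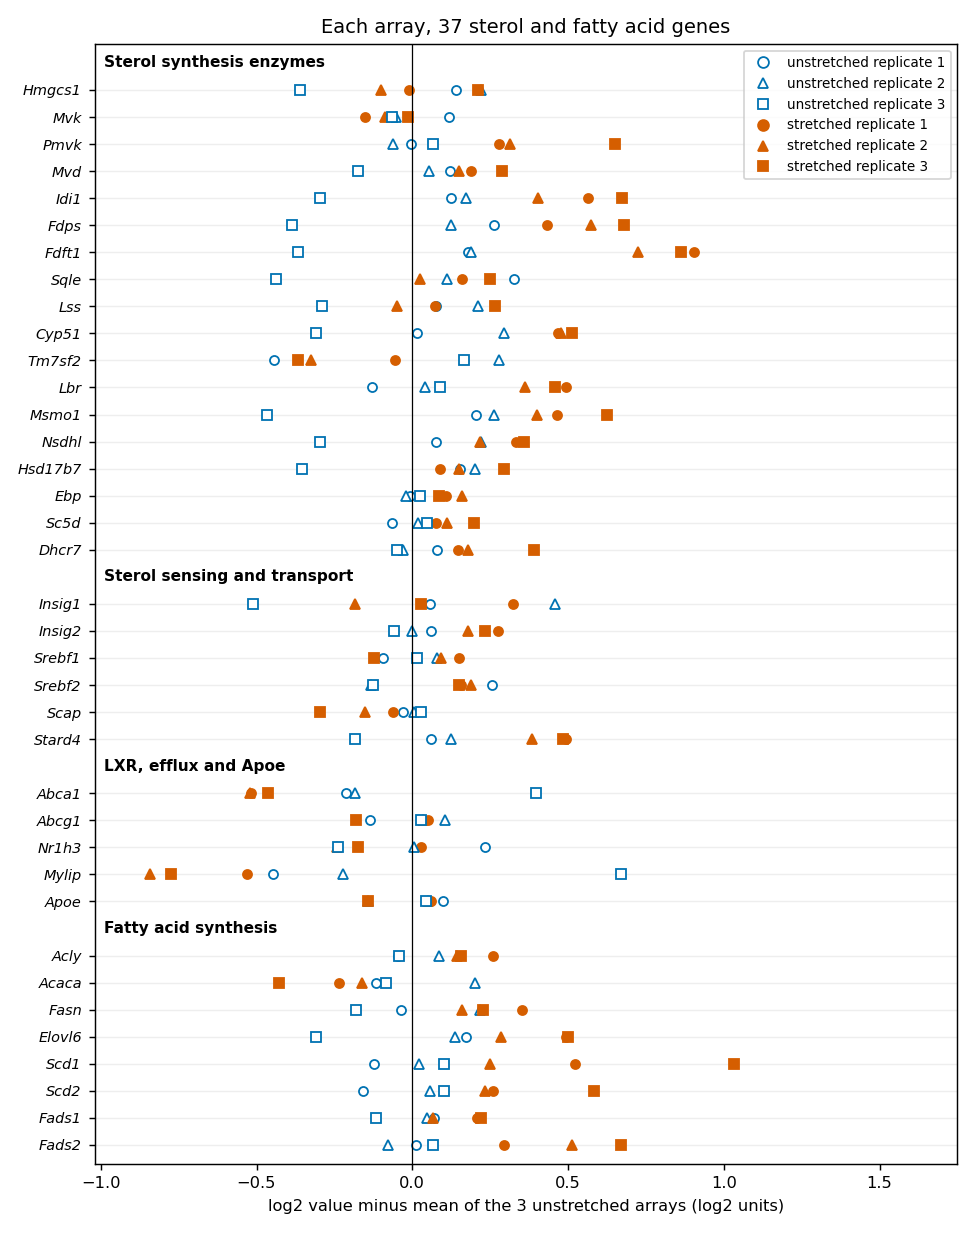
Log2 value of each of 37 genes on each of the 6 arrays, minus the mean of the 3 unstretched arrays, with open blue symbols for unstretched and filled orange symbols for stretched arrays. In the sterol synthesis block unstretched replicate 3 (open square) is lowest in 12 of 18 genes, and the 3 stretched arrays of Fdft1, Idi1 and Lbr all lie to the right of the unstretched ones.

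Stretched cells had more mRNA of several enzymes of the isoprenoid and squalene steps and of lanosterol processing. Of the 18 measured sterol synthesis enzymes, 6 rose (Pmvk, Idi1, Fdps, Fdft1, Cyp51 and Lbr), 0 fell and 12 did not pass the threshold, a limma adjusted p under 0.05 over all 18193 genes. Over all genes, 7.98% rose and 6.76% fell (1452 and 1229 genes). That split depended on scaling, being 1149 and 1544 after a further quantile normalization, 1192 and 1481 after cyclic loess, and 1666 and 1028 after centring on array medians. The change, stretched minus unstretched on the log2 scale with 3 arrays a group, was positive in 16 of the 18 enzymes, of which Hmgcs1 turned negative after quantile normalization or cyclic loess. The median was 0.22, against -0.02 over all genes, where 8450 of 18193 changes were positive. The 3 stretched values lay above all 3 unstretched values in 11 of the 18, and in 16.0% of all genes, and below them in 0 of the 18, and in 16.6% of all genes. Leaving out unstretched replicate 3, the median was 0.15, 12 of 18 changes were positive and 5 enzymes rose. A bulk measurement cannot tell fewer cells of a type from less RNA per cell.

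The first steps join acetyl units and make mevalonate into isopentenyl diphosphate. Hmgcs1, the cytosolic synthase that makes HMG-CoA, read 10.40, 10.48 and 9.90 on unstretched arrays 1 to 3 and 10.25, 10.16 and 10.47 on stretched arrays 1 to 3 by its brightest probe set. The groups overlapped, with the lowest value on unstretched replicate 3, and the log2 change was 0.03 (SE 0.15, adjusted p = 0.915). Without that array the change was -0.15. Among the kinases and the decarboxylase that follow, Mvk differed by -0.08 (adjusted p = 0.598) and Mvd by 0.21 (adjusted p = 0.196), or 0.12 without unstretched replicate 3. Pmvk, phosphomevalonate kinase, read 5.88, 5.82 and 5.95 in unstretched and 6.16, 6.20 and 6.53 in stretched cells. The groups were apart and stretched replicate 3 was highest, and Pmvk rose by 0.41 (SE 0.11, adjusted p = 0.0271), to a level 1.33-fold that of unstretched cells. Pmvk lay close to the level of the median gene and its probe set carries a suffix that marks probes shared between transcripts.

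Idi1, Fdps and Fdft1 carry the pathway from isopentenyl diphosphate to squalene, and all 3 rose. Idi1, the isomerase, read 9.14, 9.18 and 8.71 in unstretched and 9.58, 9.42 and 9.69 in stretched cells, a rise of 0.55 (SE 0.13, adjusted p = 0.0165). Fdps, which makes farnesyl diphosphate, read 9.11, 8.97 and 8.46 against 9.28, 9.42 and 9.53, a rise of 0.56 (SE 0.15, adjusted p = 0.0290). In both genes every stretched array was above every unstretched one, and unstretched replicate 3 was the lowest. Without it, Fdps differed by 0.37 and Idi1 by 0.40. Fdft1, squalene synthase and the first enzyme committed to sterols, read 8.47, 8.48 and 7.92 in unstretched and 9.20, 9.01 and 9.15 in stretched cells. Its groups were well apart, and the rise of 0.83 (SE 0.14, adjusted p = 0.00300), 1.78-fold, was the largest among the 37 genes in this fit. It was still 0.65 without unstretched replicate 3. By a dimmer Fdft1 probe set without the shared-probe suffix the change was 0.50, with an adjusted p of 0.0506 when only such probe sets were tested.

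Squalene is oxidised and closed to lanosterol by Sqle and Lss. Sqle, squalene epoxidase, read 9.97, 9.75 and 9.20 in unstretched and 9.80, 9.66 and 9.89 in stretched cells. The stretched values lay inside the unstretched range, and the change was 0.14 (SE 0.16, 95% interval -0.22 to 0.51, adjusted p = 0.630). Lss, lanosterol synthase, differed by 0.10 (adjusted p = 0.703). Both changes turned negative without unstretched replicate 3, to -0.07 and -0.05.

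In the steps from lanosterol to cholesterol, Cyp51 and Lbr rose. Cyp51, the 14-alpha demethylase, read 8.80, 9.08 and 8.47 in unstretched and 9.25, 9.26 and 9.29 in stretched cells. The stretched arrays were nearly equal and above all unstretched ones, and the rise was 0.49 (SE 0.13, adjusted p = 0.0313). Lbr, a sterol reductase that also anchors chromatin to the inner nuclear membrane, read 10.05, 10.22 and 10.27 against 10.67, 10.54 and 10.64. Here unstretched replicate 3 was not low, the groups were apart, and the rise was 0.44 (SE 0.09, adjusted p = 0.00871). Tm7sf2, the other enzyme with this reductase activity, differed by -0.25 (SE 0.17, adjusted p = 0.381), with overlapping groups. Msmo1, the sterol methyl oxidase, read 10.65, 10.70 and 9.98 in unstretched and 10.91, 10.84 and 11.07 in stretched cells. Its groups were apart, with unstretched replicate 3 far below the rest, and the difference of 0.50 (SE 0.17) had an adjusted p of 0.0748. Without that array the difference was 0.26. The last enzymes of the pathway were not called, with changes of 0.30 for Nsdhl, 0.24 for Dhcr7, 0.18 for Hsd17b7, 0.13 for Sc5d and 0.12 for Ebp. Nsdhl was at 0.15 and Hsd17b7 at -3.0e-05 without unstretched replicate 3.

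The calls differed in how much they rested on single arrays. Lbr and Fdft1 kept an adjusted p under 0.05 with any 1 array left out, the highest being 0.0436 and 0.0165. Idi1 lost its call without stretched replicate 1 (adjusted p = 0.0586) or 3 (0.0723). Pmvk lost it without unstretched replicate 1 (0.0669) or 2 (0.0844) or stretched replicate 3 (0.0902). Fdps lost it without any 1 of the stretched replicates 1, 2 and 3 (0.0503, 0.0792 and 0.110). Fdps was lost too after quantile normalization (0.0617), after cyclic loess (0.0572) and with the mean of its probe sets, which gave a change of 0.23 (0.177). Cyp51 lost it in every such fit but the one without unstretched replicate 2. Without unstretched replicate 3 the Cyp51 change was 0.33 (0.0626), and without unstretched replicate 1 or any 1 stretched array the adjusted p lay between 0.0718 and 0.0974. Quantile normalization (0.0734) and cyclic loess (0.0674) ended the Cyp51 call as well. Msmo1 was called higher without unstretched replicate 2 (0.0491). Tm7sf2 was called lower without unstretched replicate 1, where its change was -0.47 (0.0297). With fewer arrays the test also has fewer degrees of freedom.

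**Figure D2:**
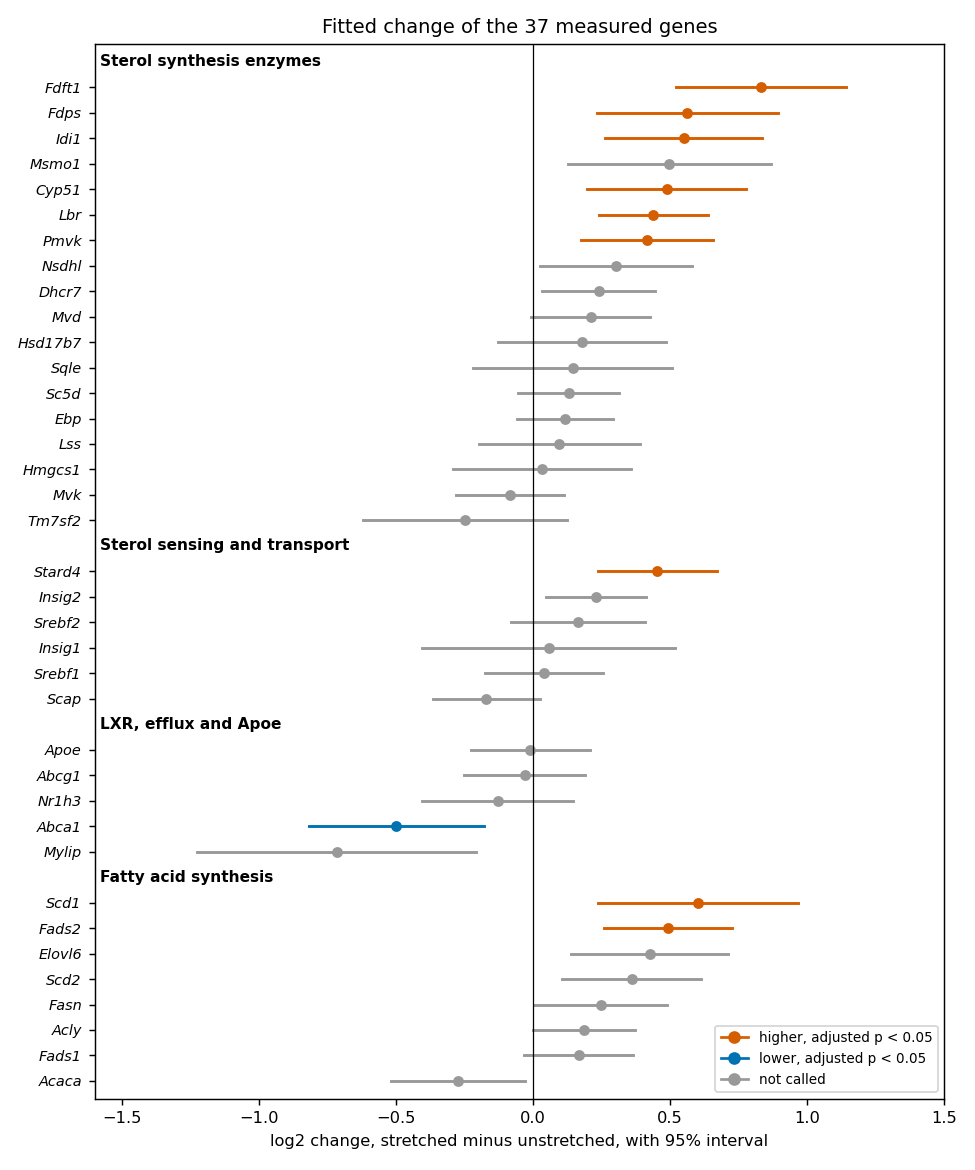
Log2 change, stretched minus unstretched, of each gene by its brightest probe set, with bars for the 95% interval from limma (n = 3 arrays a group), coloured by call. Fdft1 is highest at 0.83 and Mylip lowest at -0.72, and 10 of the 37 genes passed the threshold, 9 of them higher.

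Among the 6 sensing and transport genes, only Stard4 passed by its brightest probe set. Stard4 encodes a soluble carrier that moves cholesterol between membranes. It read 9.59, 9.65 and 9.35 in unstretched and 10.02, 9.91 and 10.01 in stretched cells. The groups were apart, and it rose by 0.45 (SE 0.10, adjusted p = 0.0112), a call that held with any 1 array left out (highest adjusted p 0.0496). The 2 genes for SREBP were not called. Srebf2, whose product mainly drives sterol genes, read 8.16, 7.77 and 7.78 against 8.06, 8.09 and 8.05, a difference of 0.16 (SE 0.11, adjusted p = 0.380) with 1 unstretched array above all stretched ones. It was 0.10 without unstretched replicate 3. Srebf1, whose product drives fatty acid genes, read 8.23, 8.40 and 8.33 against 8.47, 8.41 and 8.20, a difference of 0.04 (SE 0.10, 95% interval -0.18 to 0.25, adjusted p = 0.840). That sign turned under 2 scalings, to -0.04 after a further quantile normalization and -0.02 after cyclic loess. Scap read 9.05, 9.09 and 9.11 in unstretched and 9.02, 8.93 and 8.79 in stretched cells. All 3 stretched values were lower, but the difference of -0.17 (SE 0.09) did not pass (adjusted p = 0.246). The arrays measure mRNA, so cleavage of the SREBP proteins was not measured.

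The 2 INSIG genes, which encode the proteins that retain SREBP in the endoplasmic reticulum, differed in pattern. Insig1, itself a well known SREBP target, read 7.02, 7.42 and 6.45 in unstretched and 7.29, 6.78 and 6.99 in stretched cells. The unstretched values enclosed all stretched ones, and the change was 0.06 (SE 0.21, 95% interval -0.40 to 0.52, adjusted p = 0.894). Without unstretched replicate 3 it was -0.20, and without stretched replicate 1 it was -0.08. Insig2 read 9.46, 9.40 and 9.35 in unstretched and 9.68, 9.58 and 9.64 in stretched cells by its brightest probe set. Its groups were apart by a small step, 0.23 (SE 0.08, adjusted p = 0.0920). By 2 dimmer Insig2 probe sets the gene was called higher, as described below.

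All 5 measured genes of efflux and the LXR response had negative changes, save that Apoe turned positive (0.02 to 0.03) under each of the 3 rescalings. Their median was -0.13, and 1 of them fell. Over all genes, 9743 of 18193 changes were negative and 6.76% fell. Abca1, the transporter that loads cholesterol onto apolipoproteins and a target of LXR, read 8.33, 8.36 and 8.94 in unstretched and 8.02, 8.02 and 8.08 in stretched cells. The stretched arrays were close together and below all unstretched ones, and unstretched replicate 3 was highest. Abca1 fell by 0.50 (SE 0.14, adjusted p = 0.0409), a level 1.41-fold lower. Without unstretched replicate 3 it fell by 0.30, and the call was lost without stretched replicate 1 (adjusted p = 0.114), 2 (0.107) or 3 (0.0972). It was lost too after centring on array medians (0.0533) and when every probe set was tested (0.0504).

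Mylip, an LXR-induced ubiquitin ligase that targets lipoprotein receptors, read 8.30, 8.53 and 9.42 in unstretched and 8.22, 7.91 and 7.97 in stretched cells. The stretched values were all lower, and unstretched replicate 3 lay 1.00 above the mean of the other unstretched arrays. The difference was -0.72 (SE 0.23, adjusted p = 0.0618). The difference was -0.38 without that array. Mylip was called lower without unstretched replicate 1 (0.0241) and under 2 of the 3 rescalings, a further quantile normalization (0.0392) and cyclic loess (0.0444). Unstretched replicate 3 was thus low in most sterol enzymes and highest in both of these LXR targets. Abcg1, another exporter, differed by -0.03 (adjusted p = 0.878) and Nr1h3, which encodes LXR-alpha, by -0.13 (adjusted p = 0.554), or by -0.02 and -0.25 without unstretched replicate 3. Apoe, the apolipoprotein that carries exported cholesterol, read 3.92 to 4.16 on all 6 arrays, so that no difference could be read at this low signal. The Apoe change was -0.01, and 0.01 without unstretched replicate 3. These 3 genes lay below the level of the median gene, where RMA, the summary method, compresses changes.

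The 8 fatty acid genes, all measured, showed 2 that rose (Scd1 and Fads2), 0 that fell and 6 that did not pass. The change was positive in 7 of 8, with a median of 0.30, and the stretched arrays lay above all unstretched arrays in 5 genes and below them in 1. Over all genes 7.98% rose, 6.76% fell, and 16.0% and 16.6% lay wholly above and below. Changes were positive in 8450 of all 18193 genes. Scd1, a stearoyl-CoA desaturase that makes monounsaturated fatty acids, read 6.45, 6.60 and 6.68 in unstretched and 7.10, 6.83 and 7.61 in stretched cells. The groups were apart and stretched replicate 3 was far above the rest, and Scd1 rose by 0.60 (SE 0.17, adjusted p = 0.0330), 1.52-fold. Without stretched replicate 3 the change was 0.39 (adjusted p = 0.0759). The call was also lost without unstretched replicate 1 (0.103) or 2 (0.0792) or stretched replicate 1 (0.0717).

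Fads2, the delta-6 desaturase of polyunsaturated fatty acid synthesis, read 9.45, 9.36 and 9.51 in unstretched and 9.73, 9.95 and 10.11 in stretched cells. The groups were clearly apart, and Fads2 rose by 0.49 (SE 0.11, adjusted p = 0.0105), 1.41-fold, with an adjusted p of at most 0.0447 when any 1 array was left out. Its 3 probe sets were all called higher, with changes from 0.49 to 0.51. When every probe set was tested, 1 of the 3 kept its call with any 1 array left out. The brightest lost it there without unstretched replicate 2 or stretched replicate 2 or 3 (adjusted p up to 0.0547), and the other without unstretched replicate 1 or 2 or stretched replicate 2 or 3 (up to 0.0905). Fads1, the delta-5 desaturase of the same pathway, differed by 0.17 (adjusted p = 0.270), or 0.11 without unstretched replicate 3.

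Scd2, the desaturase isoform with the highest signal of the 8, read 11.20, 11.41 and 11.46 in unstretched and 11.62, 11.59 and 11.94 in stretched cells. The groups were apart, with a difference of 0.36 (SE 0.11, adjusted p = 0.0606). Elovl6, which elongates palmitate, read 8.94, 8.90 and 8.46 against 9.26, 9.05 and 9.27, a difference of 0.43 (SE 0.13, adjusted p = 0.0508). Its groups were apart too, and its value on unstretched replicate 3 was low, as in the sterol enzymes. Without it the Elovl6 difference was 0.27. Elovl6 was called without unstretched replicate 1 (0.0425), and both Elovl6 and Scd2 were called after centring on array medians (0.0386 and 0.0449). The enzymes that start the pathway were not called. Acly, which makes cytosolic acetyl-CoA, differed by 0.19 (adjusted p = 0.185), and Fasn, fatty acid synthase, by 0.25 (adjusted p = 0.177), or 0.16 without unstretched replicate 3. Acaca, the acetyl-CoA carboxylase that supplies malonyl-CoA, read 7.66, 7.97 and 7.69 in unstretched and 7.54, 7.61 and 7.34 in stretched cells. It was the 1 fatty acid gene with lower stretched values throughout, with a difference of -0.28 (SE 0.11, adjusted p = 0.131).

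**Figure D3:**
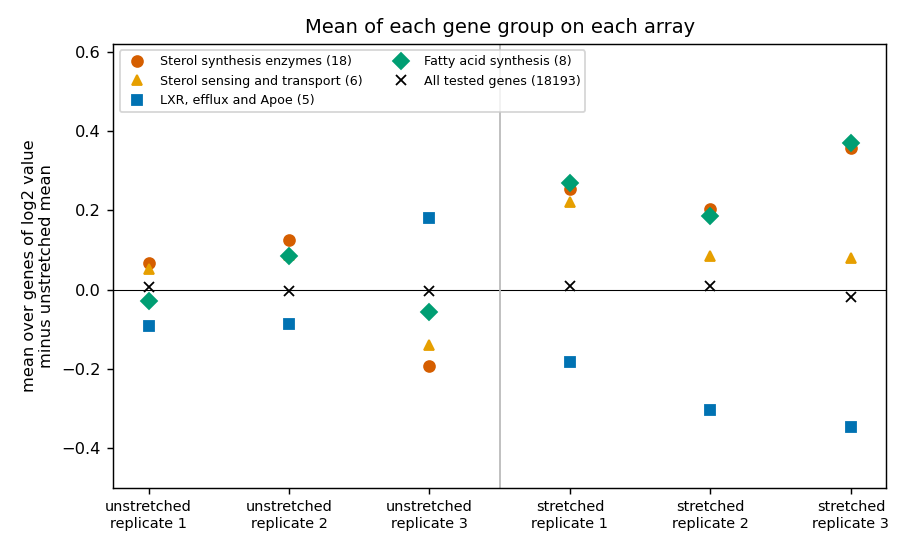
Mean over the genes of each group of the log2 value minus that gene's unstretched mean, for each of the 6 arrays. Sterol synthesis genes run from -0.19 on unstretched replicate 3 to 0.36 on stretched replicate 3. The mean of the LXR and efflux genes, which leans on Abca1 and Mylip, runs from 0.18 on unstretched replicate 3 to -0.35 on stretched replicate 3.

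Averaged by array, the synthesis enzymes stood at 0.07, 0.12 and -0.19 on unstretched and 0.25, 0.20 and 0.36 on stretched replicates 1 to 3, relative to the unstretched mean. The fatty acid genes stood at -0.03, 0.09 and -0.06 against 0.27, 0.19 and 0.37. In both groups each stretched array lay above each unstretched array. The efflux and LXR genes stood at -0.09, -0.09 and 0.18 against -0.18, -0.30 and -0.35. That mean leans on Abca1 (-0.50) and Mylip (-0.72), which had the largest changes of the 5. Their median over genes stood at -0.14, -0.14 and 0.04 against 0.03, -0.24 and -0.18, with overlapping groups. Over all genes the same means lay between -0.02 and 0.01. Sensing and transport genes overlapped, at 0.05, 0.09 and -0.14 against 0.22, 0.08 and 0.08.

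Probe sets of the same gene did not always give the same answer. The 37 genes had 81 probe sets, of which 21 were called higher (25.9%) and 0 lower when every one of the 34945 probe sets with 1 symbol was tested. Over all of these, 8.18% were called higher and 4.96% lower. The median change was 0.24 over the 81 and -0.01 over all. Without unstretched replicate 3, 17 of the 81 were called higher, and without stretched replicate 3, 10 were. Of 24 genes with more than 1 probe set, 18 had another whose signed change was more positive than that of the brightest. This count includes less negative changes, as in Abca1 and Acaca, and the share over all genes was not computed. Probe sets of 1 gene share the same RNA and are not independent.

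In 5 genes (Hmgcs1, Hsd17b7, Insig2, Acly and Elovl6) the brightest probe set was not called and another was called higher. These probe sets were singled out after their values were seen. For Hmgcs1, the probe set 1433444_at read 9.01, 9.19 and 8.55 in unstretched and 9.57, 9.64 and 9.86 in stretched cells. All stretched arrays were higher, by 0.78 on average (SE 0.15, adjusted p = 0.00893 over all probe sets), where the brightest gave 0.03. For Insig2, 1417980_a_at read 7.04, 6.82 and 7.16 against 8.10, 7.90 and 8.16, a change of 1.04 (SE 0.11, adjusted p = 0.000388), and 1417982_at gave 0.50 (adjusted p = 0.00739). For Elovl6, 1417403_at read 6.82, 6.93 and 6.45 against 7.67, 7.54 and 7.96, a change of 0.99 (SE 0.14, adjusted p = 0.00171). In each of these 3 genes the groups were far apart on the dimmer probe set. These calls of Hmgcs1, Insig2 and Elovl6 held with any 1 array left out. For Acly and Hsd17b7 the called probe sets gave 0.50 and 0.49.

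Idi1 was called by both of its probe sets, with 1.31 (SE 0.18, adjusted p = 0.00144) on 1423804_a_at beside 0.55 on the brightest. Cyp51 gave 0.76 on 1422533_at and Stard4 0.90 on 1429239_a_at, each with a call there too, and both of these calls were lost without some single arrays (adjusted p up to 0.0683 and 0.0767). The 8 probe sets of the efflux and LXR genes all had negative changes in the deposited scaling, and 0 of them were called in this larger test. Over all probe sets with 1 symbol, 48.2% of changes were positive. Which transcript forms the probe sets detect was not examined, and no detection calls were used here.

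**Figure D4:**
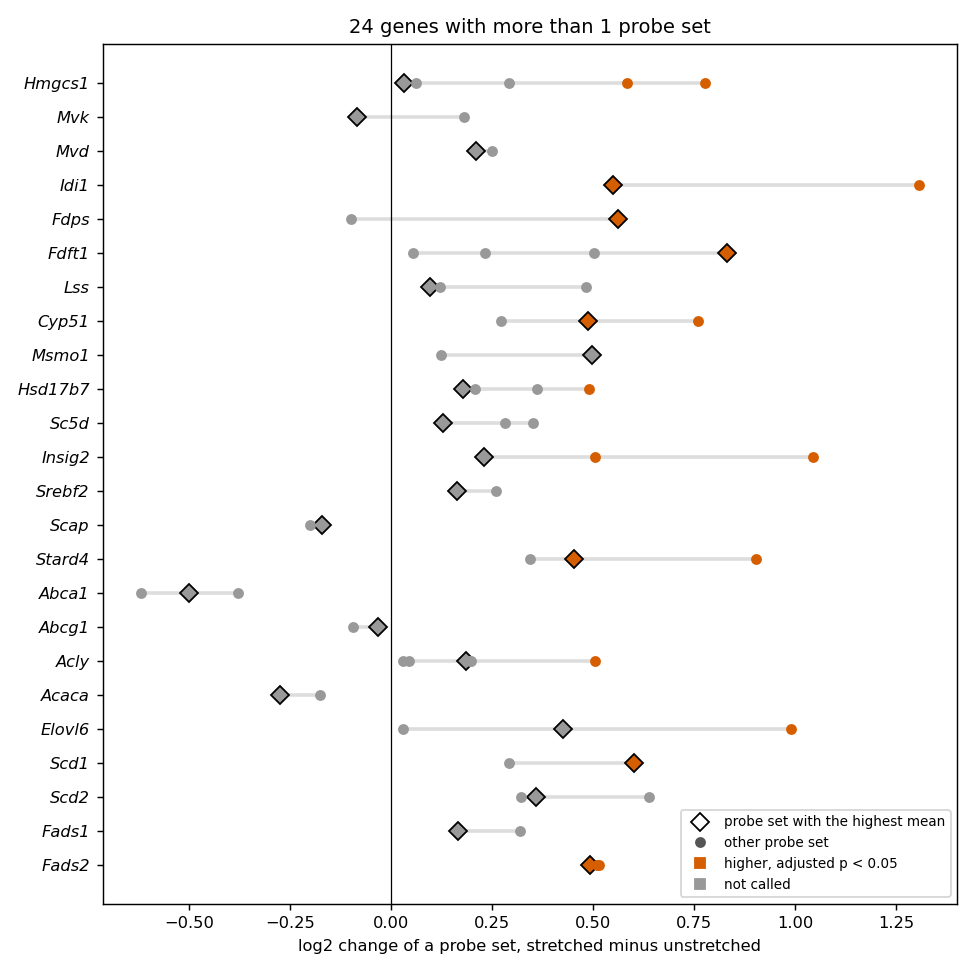
Log2 change, stretched minus unstretched, of every probe set of the 24 genes with more than 1, with diamonds for the brightest probe set, circles for the others and orange for those called higher. Several dimmer probe sets lie well to the right of the brightest one of the same gene, among them Idi1 at 1.31, Insig2 at 1.04 and Elovl6 at 0.99.

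Genes next to these pathways moved in both directions, to be read beside the 7.98% that rose and 6.76% that fell over all genes. Of 26 measured genes of other sterol handling, 1 rose and 5 fell, with a median change of -0.01. Vldlr, a receptor for triglyceride-rich lipoproteins, read 9.36, 9.62 and 9.60 in unstretched and 8.37, 8.09 and 7.93 in stretched cells. The groups were far apart, and Vldlr fell by 1.40 (SE 0.12, adjusted p = 6.7e-05), a level 2.63-fold lower. Npc2, which hands cholesterol out of the lysosome, fell by 0.36 (adjusted p = 0.0173), Osbpl2, an oxysterol-binding protein, by 0.35 (adjusted p = 0.0142) and Cyp7b1, an oxysterol hydroxylase, by 0.34 (adjusted p = 0.0221). Scarb1, a lipoprotein receptor and the 1 gene that rose, differed by 0.28 (adjusted p = 0.0496), a call lost in 10 of 14 alternatives, among them each of the 6 arrays left out (adjusted p up to 0.180). Vldlr was called with any 1 array left out. Npc2 was lost without stretched replicate 1 or 3 (adjusted p up to 0.0700) and Osbpl2 without stretched replicate 2 or 3 (up to 0.0565). Cyp7b1 was lost without unstretched replicate 2 or any 1 stretched array (up to 0.0897). With a mean of 4.37, Cyp7b1 lay below the level of the median gene. Its call was also lost with the mean of its probe sets and without those that carry the shared-probe suffix. The other Cyp7b1 probe sets gave -0.23 and 0.12, neither called.

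Of 11 genes of the isoprenoid branch, which uses farnesyl diphosphate for other products, 1 rose and 2 fell. Ggps1, which makes geranylgeranyl diphosphate for protein prenylation, read 7.89, 7.92 and 7.88 in unstretched and 8.73, 8.52 and 8.68 in stretched cells. Both groups were tight and apart, unstretched replicate 3 was not low, and Ggps1 rose by 0.75 (SE 0.09, adjusted p = 0.000341), 1.68-fold, and was called with any 1 array left out. Coq2 of ubiquinone synthesis fell by 0.28 (adjusted p = 0.0464), a call lost without any 1 of the 6 arrays (adjusted p up to 0.157). Fntb, the farnesyltransferase beta subunit, fell by 0.39 (adjusted p = 0.0318), lost without unstretched replicate 1 or 3 or stretched replicate 2 or 3 (up to 0.123).

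Of 25 other fatty acid and glycerolipid genes, 5 rose and 4 fell, with a median change of -0.07. Acsl4, an acyl-CoA synthetase with a preference for arachidonate, rose by 0.79 (SE 0.09, adjusted p = 0.000259) and Acsl3, another acyl-CoA synthetase, by 0.70 (SE 0.12, adjusted p = 0.00318). Dgat2, which makes triglyceride, read 7.03, 6.97 and 7.41 in unstretched and 6.03, 6.20 and 5.98 in stretched cells. Every stretched array was lower, and Dgat2 fell by 1.07 (SE 0.12, adjusted p = 0.000317), 2.10-fold. Agpat2, of phosphatidic acid synthesis, fell by 0.52 (SE 0.09, adjusted p = 0.00394). These 4 calls held with any 1 array left out.

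Of 13 fatty acid oxidation genes, 2 rose and 4 fell, with a median change of -0.17. Cpt1a, which lets acyl groups into mitochondria, read 8.80, 8.73 and 9.06 in unstretched and 9.46, 9.49 and 9.39 in stretched cells. Its groups were apart, and it rose by 0.58 (SE 0.10, adjusted p = 0.00334). Acaa2, the mitochondrial thiolase, fell by 0.53 (adjusted p = 0.00439), Acadm, the medium-chain dehydrogenase, by 0.45 (adjusted p = 0.0107) and Cpt2, the partner of Cpt1a inside the membrane, by 0.38 (adjusted p = 0.0175). Of these, Cpt2 lost its call without unstretched replicate 2 or stretched replicate 1 or 2 (adjusted p up to 0.0695). Cpt2 was also lost with the mean of its probe sets. The Acaa2 call was lost with the mean of its probe sets and without probe sets that carry the shared-probe suffix. Its other probe sets gave changes of -0.05 and 0.07 and were not called.

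**Figure D5:**
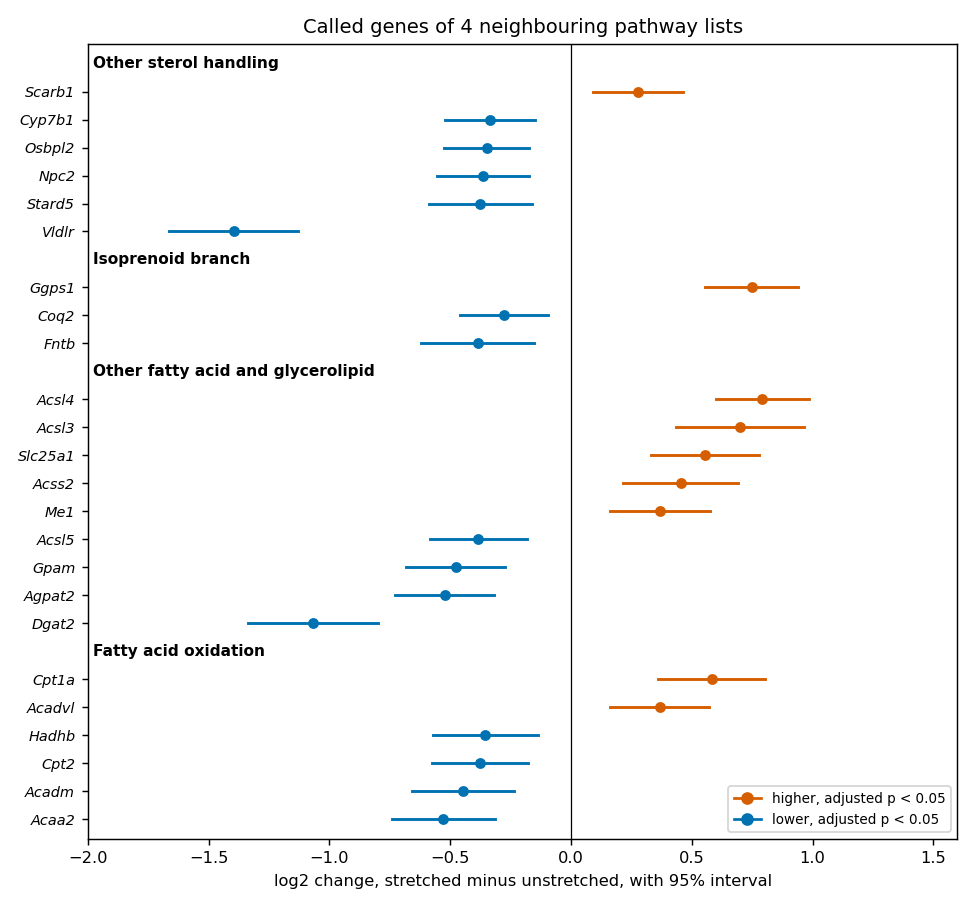
Log2 change, stretched minus unstretched, of every called gene of 4 neighbouring gene lists, with bars for the 95% interval from limma (n = 3 arrays a group). Vldlr at -1.40 and Dgat2 at -1.07 lie lowest, and Acsl4 at 0.79 and Ggps1 at 0.75 lie highest.

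Other measures moved between the groups beside these genes. A sign of RNA integrity, the 3′ signal minus the 5′ signal of beta-actin controls, was 1.57 ± 0.03 in unstretched and 1.30 ± 0.05 in stretched samples (SD, n = 3 each, two-sided exact permutation p = 0.1, the smallest 3 against 3 allows). For Gapdh controls it was 0.25 ± 0.07 and 0.16 ± 0.10, with overlapping groups (exact permutation p = 0.4, SD, n = 3 each). Their part in these results was not tested. Markers of leukocytes, a class that includes Abca1-expressing macrophages, had negative changes in 7 of 7 measured genes, and 2 of them fell, Cd68 by 0.89 and Csf1r by 0.50. Over all genes, 9743 of 18193 changes were negative, 7.98% rose and 6.76% fell. Of the 7 leukocyte markers, 6 lay below the level of the median gene, among them Cd68, which read 4.51 to 5.77. The mean level of the 7 was 5.28 to 5.40 in unstretched and 5.02 to 5.11 in stretched samples, and Ptprc, which defines leukocytes, read 4.01 to 4.46 on all arrays. The part of these markers in the lower Abca1 was not tested. Of 5 measured adipocyte markers 0 were called, Pparg read 8.01 to 8.40, and Adipoq read 3.32 to 3.59, at the low end of the array's range. Of 7 fibroblast and mesangial markers 1 rose, and Acta2, smooth muscle actin, read 13.34 to 13.36 in unstretched and 13.48 to 13.52 in stretched samples, a difference of 0.14 that did not pass (adjusted p = 0.260). Of 6 endothelial markers 0 were called, and Kdr, the brightest, read 4.78 to 4.99. Of 7 tubule markers 0 were called, and Cdh16, the brightest, read 10.30 to 11.09. Among 7 podocyte markers 1 fell, Synpo, by 0.45 (SE 0.08, adjusted p = 0.00412).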

How the data were processed

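RNA of 3 unstretched and 3 stretched samples had been hybridised to Affymetrix mouse arrays. The deposited log2 values, 1 for each probe set, were made by the authors with RMA per the submitters' processing notes. RMA equalises the overall level of arrays, so a global change of RNA cannot be seen. For RMA, no version, and for the arrays, no build is given in the sources used here. Of 45101 probe sets, 64 controls were left out, and 34945 had 1 gene symbol in the platform annotation, which can be old. They stood for 18193 genes.

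Stretched minus unstretched was fitted across all genes with limma 3.58.1 (lmFit, eBayes; R 4.3.3), with no covariate. A call is an adjusted p (Benjamini-Hochberg) under 0.05. Changes carry the fit's SE, with 3 arrays a group. The steps were tested on simulated data. The members and lists were chosen with earlier results of these data known. Array values were given for called genes, for the 4 uncalled genes with the largest moderated statistic and for 5 regulators. Those of Hmgcs1, Sqle and Acaca were added after their values were seen. Other lists show all called genes up to 5, or 4 by that statistic. In other sterol handling, Scarb1, the 1 gene that rose, was described beside these 4. Stard5 of that list, which fell by 0.38 (adjusted p = 0.0244), was not described above. Alternatives were a replicate block, leaving out arrays, 3 scalings, a filter on dim genes, other probe set choices and another prior. Promoters are from RefSeq (GRCm38.p6).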

Additional observations from a re-analysis of the deposited data

How the results depend on the processing

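The counts of called genes moved with the processing, and the causes were not tested beyond what fewer arrays or genes give by construction. The 7 sterol genes called higher ranged from 3 to 7 when 1 array was left out, and stayed within 1.5 times of 7 under the other alternatives. The 1 sterol gene called lower was 2 with the replicate block, after quantile normalization and after cyclic loess, 0 after centring on array medians, when all probe sets were averaged or tested, and 0 to 3 with 1 array left out. The 2 fatty acid genes called higher were 4 with the replicate block, after centring, without dim genes and with a trended robust prior, and 1 to 2 with 1 array left out. The probe set counts were run under alternatives chosen after seeing the data: the 21 called higher ranged from 10 to 18 with 1 array left out, and the 0 called lower were 1 with the replicate block, after cyclic loess and with the other prior, 2 after quantile normalization and 0 to 4 with 1 array left out. Arrays with the same replicate number correlated in their deviations from the group means by 0.018, 0.15 and 0.28 over all genes, and not every array correlated best with its own number, so they were not taken as pairs.

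Signs turned in uncalled genes with small changes. Hmgcs1 went to -0.051 after quantile normalization and -0.038 after cyclic loess, and ranged from -0.15 to 0.14 with 1 array left out. Srebf1 went to -0.041 and -0.023 under these scalings and ranged from -0.015 to 0.12. Apoe went to 0.029 and 0.033 under them and 0.018 after centring, and ranged from -0.082 to 0.055. Mvk went to 0.048 with the mean of all probe sets. With 1 array left out, Sqle ranged from -0.074 to 0.31, Lss from -0.049 to 0.20, Hsd17b7 from -3.0e-05 to 0.28, Insig1 from -0.20 to 0.28 and Abcg1 from -0.099 to 0.043. Lbr, Stard4 and Fads2 kept their calls under all 15 alternatives. When every probe set was tested and 1 array was left out, the brightest probe sets of all these genes lost calls. Lbr lost its call there without stretched replicate 1 (adjusted p = 0.0556). Stard4 lost it without stretched replicate 1 or 3 (up to 0.0622), and Fads2 as given above. Dim genes have no detection calls here, and signal over background is unknown.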
